A study of Mus musculus with 22 samples.

Results

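The secreted WNT antagonists studied here are 9 mouse genes, namely Sfrp1, Sfrp2, Sfrp4, Sfrp5, Frzb, Dkk1, Dkk2, Dkk3 and Wif1, each found by an exact match of its gene symbol. All 9 were present in each deposited count table, among 34866 gene identifiers in the culture tables, 23911 in the cartilage table and 40756 over these tables together. They were followed across the loss of the DNA methyltransferase gene Dnmt1 in untreated chondrocyte cultures, in cultures given bone morphogenetic protein 2 (BMP2) and in postnatal cartilage, and from day 0 to day 3 of culture in each genotype.

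WNT proteins are secreted lipid-modified ligands that bind Frizzled receptors together with the coreceptors Lrp5 or Lrp6, which stabilises β-catenin and switches on target genes such as Axin2. Antagonists outside the cell hold this signal back along separate routes: the secreted Frizzled-related proteins (the Sfrp genes and Frzb) and Wif1 bind WNT ligands themselves, whereas Dkk1 and Dkk2 bind Lrp5 and Lrp6. Dkk3 is a divergent Dickkopf that is not known to bind these coreceptors in the way Dkk1 does. In cartilage the balance of WNT signalling is known to influence whether chondrocytes keep their identity or mature, and Frzb was originally isolated from cartilage.

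RNA was measured in 22 samples in 6 groups. Control samples carried the genotype "Dnmt1 flox" and mutant samples (cKO) "Prrx1-Cre;Dnmt1 flox/flox", in which Cre is expressed from a Prrx1 promoter known to act in limb bud mesenchyme, so that deletion is not limited to chondrocytes. Primary chondrocytes from knee articular cartilage of mice at postnatal day 3 to 5 were sampled untreated (day 0, 3 samples per genotype) or after 3 days with BMP2, given as 100 ng/µl (day 3, 4 samples per genotype). Cartilage of postnatal day 5 mice, labelled only as flox or cKO, gave 4 samples per genotype, with replicates 1 and 2 male and replicates 3 and 4 female. Culture samples were labelled as biological replicates, whereas nothing says which animals the cartilage samples came from, so p-values measure the spread between these samples. Day, BMP2 and count table changed together in the cultures and cannot be told apart. All control cartilage libraries were in one library pool and all cKO libraries in the other, so pool and genotype cannot be told apart there either.

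Libraries held 41749327 to 51741478 counts at day 0, 14434197 to 18918714 counts at day 3 and 1100198 to 1888896 counts in cartilage. Levels are given as CPM (counts scaled to a common library size), and a gene was taken to be at the floor in a library with at most 3 counts, which is at most 0.0719 CPM at day 0, 0.208 CPM at day 3 and 2.73 CPM in cartilage. Dnmt1 was lower in every cKO sample than in every control sample of its setting (log2 fold change −2.44 at day 0, −1.41 at day 3 and −1.66 in cartilage, edgeR quasi-likelihood adjusted p at most 0.00625). The labelled cell type was checked with 9 chondrocyte markers, which summed to 137009 to 145149 CPM in control and 48905 to 59808 CPM in cKO cultures at day 0. At day 3 they summed to 86576 to 108278 CPM in control cultures and to 11154 to 15965 CPM in cKO replicates 1 to 3, but to 942 CPM in cKO replicate 4. That library stood apart from its group across all genes, the counts of each pair of replicates compared by chi-square giving 123.9 to 138.4 per degree of freedom where it was in the pair and 3.53 to 30.2 in every other pair. The same markers summed to 64218 to 96389 CPM in control and 29115 to 58522 CPM in cKO cartilage. In bulk RNA, fewer cells of a type and less RNA per cell cannot be told apart, for any result that follows.

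Since Dnmt1 copies methylation at CpG dinucleotides when DNA is replicated, the 250 bases before the annotated start of 3 members are shown with each CpG in capitals, 5′ to 3′ on the strand of the gene. Sfrp5 and Sfrp2 are shown as members that were lower in cKO cultures, and Dkk2 as a member near the detection floor in most cultures. The sequences are from the RefSeq promoter table on GRCm38.p6, which matched 6 of the 9 members (Sfrp2, Sfrp5, Frzb, Dkk1, Dkk2 and Wif1, but not Sfrp1, Sfrp4 and Dkk3). They span chr19:42202253-42202502 (minus strand) for Sfrp5, chr3:83766071-83766320 (plus strand) for Sfrp2 and chr3:132085042-132085291 (plus strand) for Dkk2. DNA methylation was not measured in the data used here.
Sfrp5: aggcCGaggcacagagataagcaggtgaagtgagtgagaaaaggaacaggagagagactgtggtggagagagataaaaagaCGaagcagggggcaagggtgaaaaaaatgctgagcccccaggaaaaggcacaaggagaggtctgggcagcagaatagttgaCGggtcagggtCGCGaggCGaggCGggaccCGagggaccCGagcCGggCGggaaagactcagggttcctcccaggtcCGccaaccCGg
Sfrp2: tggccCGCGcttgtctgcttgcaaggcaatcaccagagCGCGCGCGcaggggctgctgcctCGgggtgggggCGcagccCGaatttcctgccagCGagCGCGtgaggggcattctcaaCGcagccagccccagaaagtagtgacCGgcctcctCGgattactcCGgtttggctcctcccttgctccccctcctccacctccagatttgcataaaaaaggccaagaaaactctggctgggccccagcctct
Dkk2: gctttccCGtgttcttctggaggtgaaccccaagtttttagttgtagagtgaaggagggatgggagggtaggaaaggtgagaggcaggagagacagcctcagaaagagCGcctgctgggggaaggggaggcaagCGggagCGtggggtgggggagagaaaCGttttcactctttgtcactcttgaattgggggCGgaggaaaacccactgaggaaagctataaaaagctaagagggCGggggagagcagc

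These windows held 13 CpG for Sfrp5, 16 for Sfrp2 and 7 for Dkk2. The other matched members had 16 for Frzb, 21 for Wif1 and 6 for Dkk1. Over the 32851 promoters of the table the median was 6 CpG, with quartiles of 2 and 16. Sfrp2 and Frzb, which were lower in cKO cultures, and Wif1, which was higher at day 3, all had a number of CpG at or above the upper quartile. Sfrp5, which was also lower in cKO cultures, lay below that quartile with 13 CpG. No relation of the number of CpG to the changes is read from these windows.

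In the cultures, the make-up of the antagonist pool changed with genotype more than its size did at day 3. Per kilobase of exon, the 9 genes summed to 60.5 ± 2.33 CPM per kb in control and 20.8 ± 3.66 CPM per kb in cKO cultures at day 0 (SD, n = 3 each). At day 3 they summed to 259 ± 50.5 CPM per kb in control and 261 ± 17.8 CPM per kb in cKO cultures (SD, n = 4 each), so that the sums overlapped. Frzb made up 57.1% of the control sum at day 0 (range 54.4 to 59.8%) and 65.9% at day 3 (59.4 to 72.6%). In cKO cultures its share was 26.8% at day 0 and 2.73% at day 3. Dkk3 made up 12.4% and 16.8% in control cultures at the same days, 28.3% in cKO cultures at day 0 and 84.4% in cKO cultures at day 3 (83.4 to 85.6%). The shares are a description of these libraries and carry no test.

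**Figure D1:**
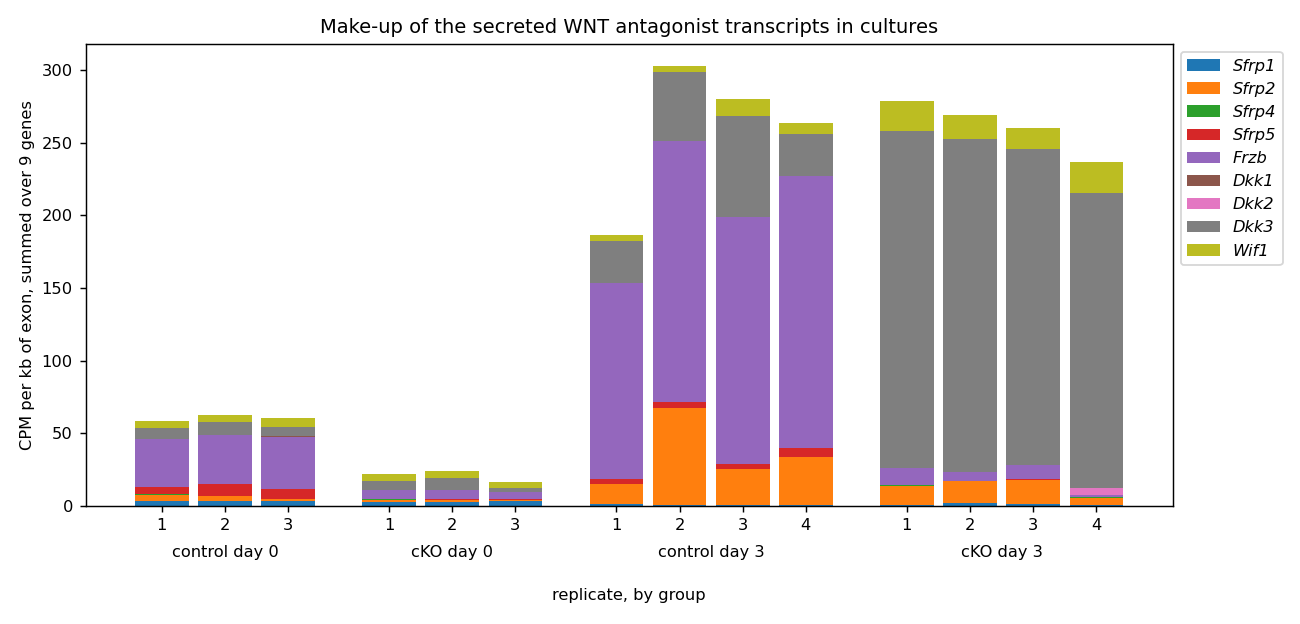
Stacked bars give the level of each of the 9 antagonists in every culture, in CPM per kilobase of exon (vertical axis from 0), by replicate and group (horizontal axis). Frzb fills most of each control bar at day 3, Dkk3 fills 83.4 to 85.6% of each cKO bar at day 3, and the total height there is 187 to 303 for controls and 237 to 279 for cKO cultures.

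Per length, the order of the members in control cultures at day 0 was Frzb (34.6 ± 1.51 CPM per kb), Dkk3 (7.52), Sfrp5 (6.55), Wif1 (5.32), Sfrp1 (3.45), Sfrp2 (2.84), Sfrp4 (0.233), Dkk2 and Dkk1. The ranges of Dkk3 and Sfrp5, Sfrp5 and Wif1, Sfrp1 and Sfrp2, and Dkk2 and Dkk1 overlapped in that order. In cKO cultures at day 3 Dkk3 came first (220 ± 13.4 CPM per kb), with no overlap with Wif1 (18.4 ± 3.13), and Wif1, Sfrp2 (12.2 ± 5.28) and Frzb (7.31 ± 4.73) overlapped one another as neighbours. Sfrp5 ranked just under Dkk3 in control cultures at day 0 but next to last in cKO cultures at day 3 (0.0778 ± 0.0265 CPM per kb), where its range overlapped that of Dkk1. The 3′ tags of the cartilage libraries are not scaled by length, so no order of genes is read from them.

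**Figure D2:**
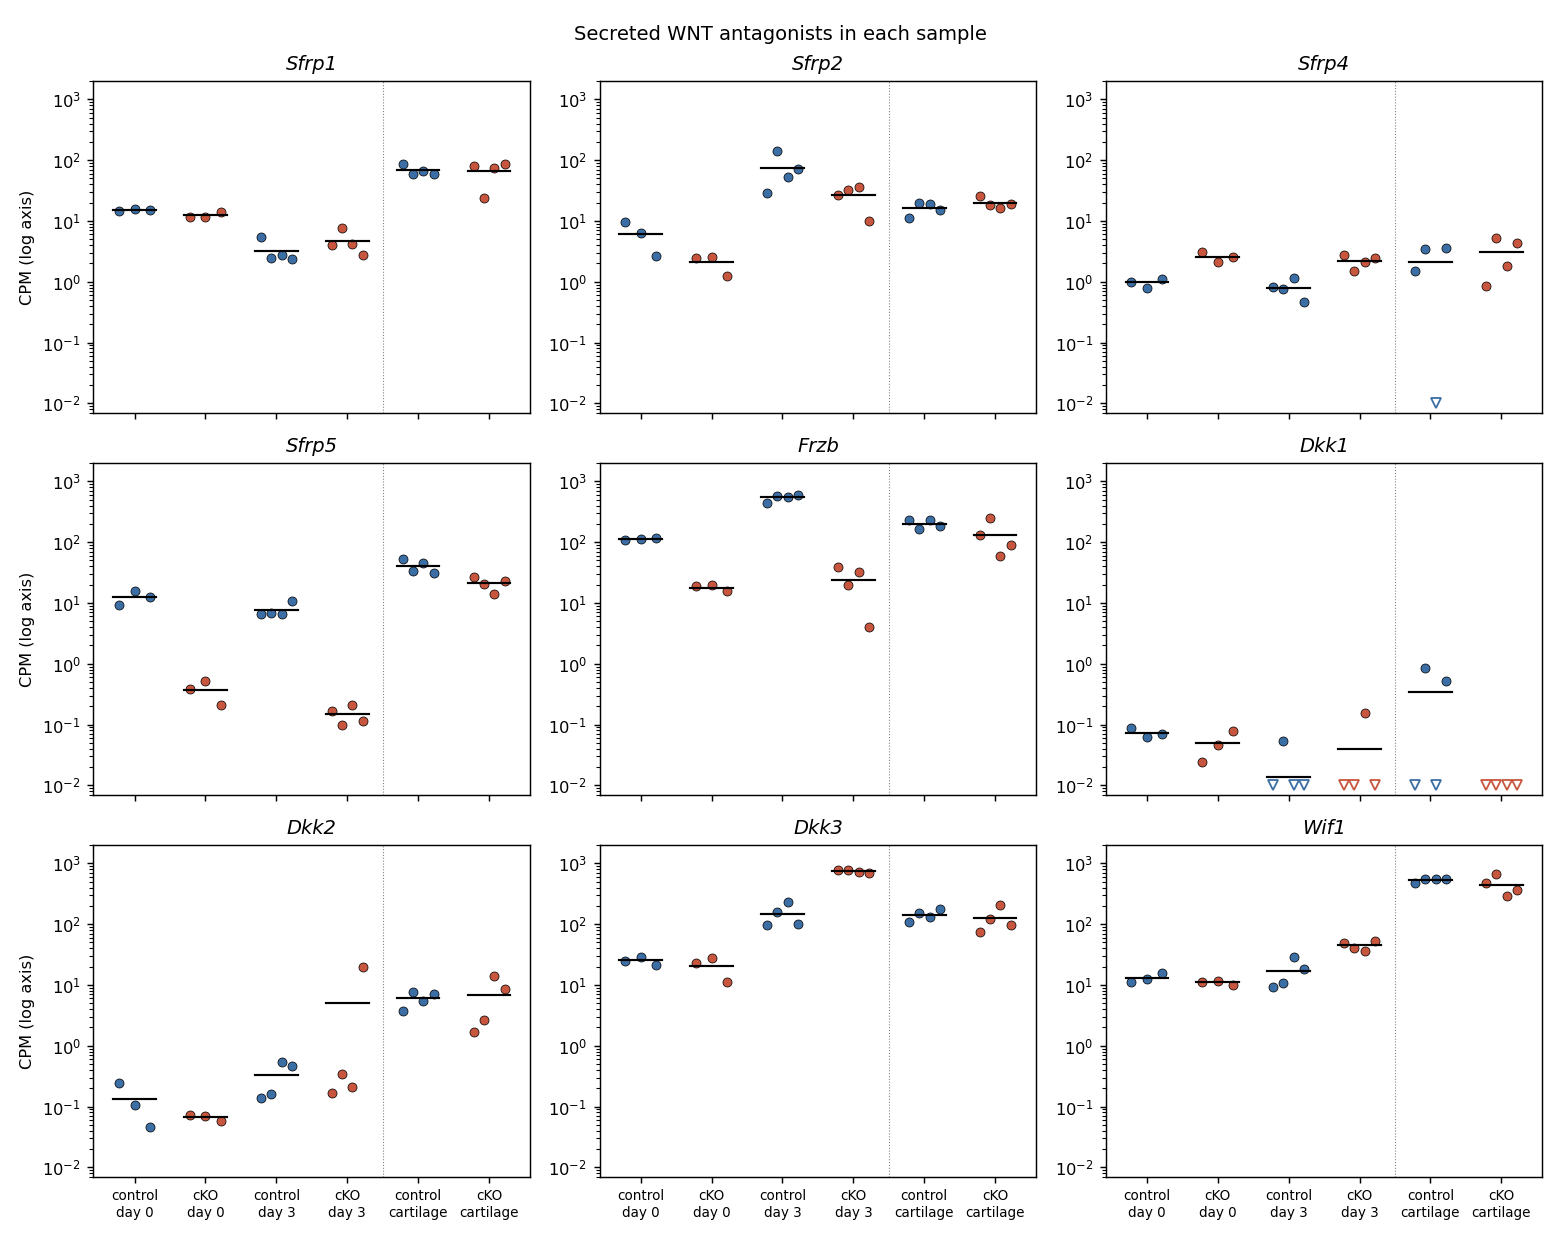
CPM of each antagonist (log axis) in every sample of the 6 groups, with blue points for control, red points for cKO and a line at the group mean; open triangles at the bottom mark samples with a count of 0. Cultures share 1 scaling and cartilage has its own, so levels are not compared across the dotted line. Sfrp5 lies at 6.51 to 15.6 CPM in control cultures and at 0.0987 to 0.528 CPM in cKO cultures, and a single Dkk2 point stands at 19.7 CPM.

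Large shares of all genes changed in the cultures, and the counts of members are given against them. At day 0, 5 of the 7 members that could be tested differed between genotypes (1 higher and 4 lower in cKO), where 64.5% of the 15530 genes tested did (33.0% higher and 31.6% lower). At day 3, 6 of 7 differed (3 higher and 3 lower), where 48.1% of 13924 genes did (25.5% and 22.6%), and 6 of 7 were also called without cKO replicate 4. In cartilage 1 of 6 differed (lower), where 6.19% of 8793 genes did (3.15% higher and 3.04% lower). The genotypes did not overlap for 5 of 7 members tested at day 0, against 70.4% of genes, and for 5 of 7 at day 3, against 47.9%. The median log2 fold change of the members tested was −0.31 at day 0, 0.53 at day 3 and −0.26 in cartilage, against 0.01 over all genes in each of the 3. From day 0 to day 3, 5 of 7 changed in control cultures (3 higher and 2 lower at day 3), where 56.9% of 14909 genes did (28.1% higher and 28.8% lower). In cKO cultures 5 of 7 changed (3 and 2), where 62.2% did (32.4% and 29.8%). The days did not overlap for 4 of 7 members tested in control cultures, against 64.0% of genes, and for 5 of 7 in cKO cultures, against 62.5%. The genotype effect was higher at day 3 than at day 0 for 2 of 7 members and lower for 0, where 16.8% of genes differed (9.94% and 6.89%). Given these backgrounds, the number called says little about the 9 genes as a set, and the sizes and directions of single members are described next. Comparisons between genotypes and between days share samples, so the values of a member in them are set side by side and are not independent.

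**Figure D3:**
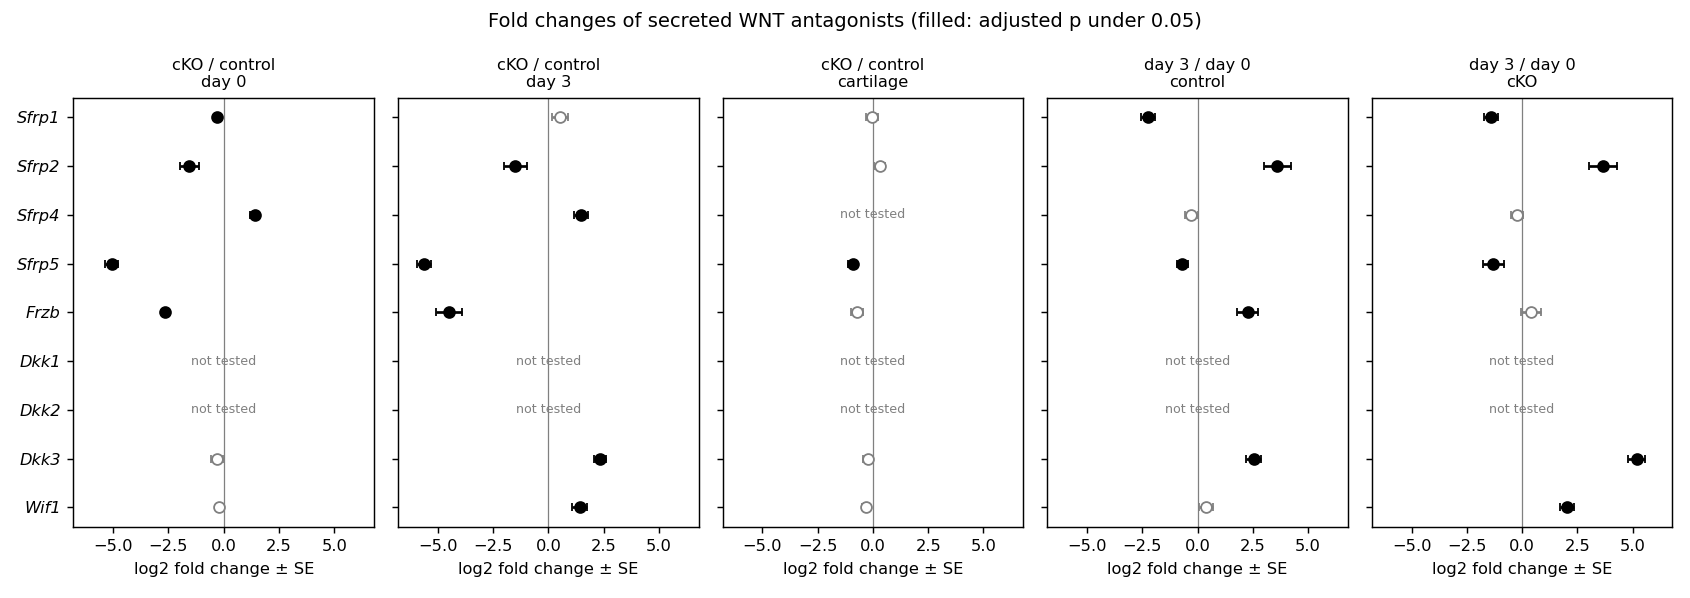
Log2 fold change ± SE (horizontal axis) of each antagonist in 5 comparisons from edgeR's quasi-likelihood test; filled points have an adjusted p under 0.05, and genes too low to be tested are marked. Sfrp5 and Frzb are lowest at both culture days, with Sfrp5 at −5.07 and −5.63, while Dkk3 lies near 0 at day 0 (−0.31) and at 2.34 at day 3.

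Frzb, the Frizzled-related antagonist with the highest level per length in control cultures, was lower in every cKO culture. At day 0 it stood at 108, 111 and 117 CPM in control replicates 1 to 3 and at 18.8, 19.4 and 15.4 CPM in cKO replicates 1 to 3. At day 3 it stood at 438, 583, 550 and 606 CPM in control replicates 1 to 4 and at 38.3, 19.5, 32.9 and 3.98 CPM in cKO replicates 1 to 4. The lowest of these was the library that stood apart, and the groups overlapped at neither day. The log2 fold change was −2.65 (SE 0.0804, edgeR adjusted p 2.01e-08) at day 0 and −4.51 (SE 0.592, edgeR adjusted p 4.48e-04) at day 3, which is 6.25-fold and 23.0-fold between the means. In control cultures Frzb rose from day 0 to day 3 by 2.28 on the log2 scale (SE 0.475, edgeR adjusted p 0.00116), whereas in cKO cultures the change was 0.41 (SE 0.459, edgeR adjusted p 0.462). The test of that difference gave −1.88 (SE 0.638, edgeR adjusted p 0.0619), short of the threshold. It passed with DESeq2 (−1.88, adjusted p 0.046) and without either of 2 libraries, at −1.53 without cKO day 3 replicate 4 (edgeR adjusted p 6.4e-04) and −2.22 without cKO day 3 replicate 1 (edgeR adjusted p 0.0314). Without replicate 4 the rise in cKO cultures was 0.76 and passed too (edgeR adjusted p 0.00326).

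The chondrocyte markers fell in the same cultures: 9 of 9 were lower in cKO at day 0 (median log2 fold change −1.87) and 7 of 9 at day 3 (median −3.13). Set against 1000 CPM of those markers, Frzb was at 0.742 to 0.821 CPM in control and 0.303 to 0.385 CPM in cKO cultures at day 0, and at 4.40 to 6.36 CPM against 1.75 to 4.22 CPM at day 3. On this relative scale too, each cKO culture was below each control culture at both days. Single markers differed by −0.71 (Sox9) to −3.76 (Matn1) at day 0 and by −1.45 (Sox9) to −6.13 (Matn1) at day 3. The Frzb differences lay within these ranges.

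Sfrp5, another WNT-binding member of the Frizzled-related family, had the largest genotype difference of the tested members in the cultures. At day 0 it stood at 9.09, 15.6 and 12.6 CPM in control replicates and at 0.384, 0.528 and 0.213 CPM in cKO replicates. At day 3 it stood at 6.51, 6.95, 6.61 and 10.9 CPM in control replicates and at 0.169, 0.0988, 0.209 and 0.115 CPM in cKO replicates, which were 2 to 4 counts per library. The groups were far apart at both days, with the cKO cultures at or near the floor at day 3. On the log2 scale Sfrp5 differed by −5.07 (SE 0.294, edgeR adjusted p 8.47e-07) at day 0 and −5.63 (SE 0.312, edgeR adjusted p 7.3e-06) at day 3. From summed counts scaled by library size, control cultures were 34.1-fold higher at day 0 (95% exact interval 25.7 to 46.1, 1701 against 50 counts) and 52.1-fold higher at day 3 (28.8 to 105, 498 against 11 counts). These intervals, like the floors, cover counting error only.

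Per 1000 CPM of chondrocyte markers, Sfrp5 was at 0.0626 to 0.114 CPM in control and 0.00419 to 0.00883 CPM in cKO cultures at day 0. At day 3 the corresponding ranges were 0.0654 to 0.100 and 0.00885 to 0.122 CPM, and the groups overlapped through cKO replicate 4, whose marker sum was lowest. Between days Sfrp5 fell by 0.69 in control (SE 0.25, edgeR adjusted p 0.0319) and by 1.30 in cKO cultures (SE 0.47, edgeR adjusted p 0.0277) on the log2 scale. Both calls were lost without single libraries. In control cultures this held for day 0 replicates 2 and 3 and day 3 replicates 1, 2 and 3, with adjusted p of 0.0767 to 0.171, and for scaling by total counts (adjusted p 0.0721). In cKO cultures it held for day 0 replicates 1 and 2 and day 3 replicates 2 and 4 (0.0538 to 0.112).

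Sfrp2, a Frizzled-related protein expressed in connective tissue mesenchyme, was the member that rose most from day 0 to day 3 in control cultures. It stood at 9.44, 6.28 and 2.63 CPM in control and 2.50, 2.55 and 1.24 CPM in cKO replicates at day 0. At day 3 it stood at 29.1, 144, 52.7 and 71.7 CPM in control and 26.9, 32.5, 35.7 and 10.1 CPM in cKO replicates. The genotypes did not overlap at day 0, by a small margin, and overlapped at day 3. The rise with day was 3.60 in control (SE 0.615, edgeR adjusted p 2.68e-04) and 3.66 in cKO cultures (SE 0.647, edgeR adjusted p 3.07e-04) on the log2 scale, with a difference of 0.06 (SE 0.788, edgeR adjusted p 0.978). Between genotypes it was lower in cKO by −1.56 at day 0 (SE 0.431, edgeR adjusted p 0.0106) and by −1.49 at day 3 (SE 0.514, edgeR adjusted p 0.0405). The day 0 call was lost when all 14 cultures shared 1 estimate of spread (adjusted p 0.0694). The day 3 call was lost without cKO replicate 1, 2 or 3 or control replicate 2 or 4 (adjusted p 0.0513 to 0.116), and the difference shrank to −0.96 without control replicate 2. It was also lost with scaling by total counts (−1.41, adjusted p 0.0523) and with the replicate number as a block (−1.39, adjusted p 0.0701). Per 1000 CPM of chondrocyte markers, Sfrp2 was not lower in cKO. It was at 0.0184 to 0.065 CPM in control and 0.0244 to 0.0511 CPM in cKO cultures at day 0. At day 3 every cKO culture was above every control culture on this scale, at 1.78 to 10.8 against 0.293 to 1.43 CPM. The marker sum itself was far lower in cKO there, at 942 to 15965 CPM against 86576 to 108278 CPM in control cultures. A gene at equal CPM in both genotypes would thus also stand higher in cKO on this scale. The share of all genes that separate on it was not counted. Sfrp2 overlaps an annotated antisense gene, Gm26771, and the culture counting is not given in the sources used here, so reads of the pair could not be told apart for certain. No other member overlaps an annotated gene.

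Sfrp1, a Frizzled-related protein known from proliferating mesenchyme, fell with day in both genotypes. Its levels were 14.8, 15.5 and 14.9 CPM in control and 11.6, 11.6 and 13.9 CPM in cKO replicates at day 0. At day 3 they were 5.42, 2.44, 2.70 and 2.37 CPM in control and 3.99, 7.55, 4.17 and 2.77 CPM in cKO replicates. Every day 3 culture was below every day 0 culture of its genotype, while the genotypes overlapped at day 3. The fall was 2.23 in control (log2 fold change −2.23, SE 0.310, edgeR adjusted p 5.28e-05) and smaller in size in cKO cultures (−1.41, SE 0.299, edgeR adjusted p 0.00118), with a difference of 0.82 that did not pass the test (SE 0.433, edgeR adjusted p 0.224). Without control day 3 replicate 1, the highest of its group, that difference was 1.17 (edgeR adjusted p 0.048). Between genotypes Sfrp1 was lower by −0.29 at day 0 (SE 0.0794, edgeR adjusted p 0.0106) and differed by 0.53 at day 3 (SE 0.371, edgeR adjusted p 0.267). The day 0 call was lost with scaling by total counts (−0.18, adjusted p 0.0804) and in the fit of all 14 cultures (adjusted p 0.485). Per 1000 CPM of chondrocyte markers, Sfrp1 was higher in cKO at day 0, at 0.194 to 0.272 CPM against 0.102 to 0.113 CPM in control cultures. At day 3 it was at 0.261 to 2.94 CPM in cKO against 0.0219 to 0.0544 CPM in control cultures. The marker sum was lower in cKO at both days, so a gene at equal CPM in both genotypes would also stand higher in cKO on this scale.

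Sfrp4 was the 1 Frizzled-related gene called higher in cKO, at a low level. It stood at 1.01, 0.803 and 1.11 CPM in control and 3.12, 2.09 and 2.58 CPM in cKO replicates at day 0. At day 3 it stood at 0.823, 0.760, 1.14 and 0.462 CPM in control and 2.76, 1.48, 2.14 and 2.42 CPM in cKO replicates. Each cKO culture was above each control culture at both days. In log2 terms the difference was 1.41 (SE 0.202, edgeR adjusted p 2.25e-04) at day 0 and 1.47 (SE 0.318, edgeR adjusted p 0.00539) at day 3. In summed counts the day 3 ratio was 2.71 (95% exact interval 1.97 to 3.78, 162 against 52 counts). Between days it changed by −0.28 in control and −0.24 in cKO cultures, neither of which passed the test (edgeR adjusted p 0.444 for both).

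Dkk3 showed the largest rise from day 0 to day 3 in cKO cultures among the 7 members that passed the expression filter. At day 0 the genotypes overlapped, with 25.1, 29.1 and 21.5 CPM in control and 22.9, 27.5 and 11.0 CPM in cKO replicates (log2 fold change −0.31, SE 0.272, edgeR adjusted p 0.337). At day 3 it stood at 97.2, 159, 234 and 98.8 CPM in control and 781, 769, 730 and 681 CPM in cKO replicates. The 4 cKO values lay close together and far above the control values. Between genotypes Dkk3 was higher at day 3 by 2.34 on the log2 scale (SE 0.282, edgeR adjusted p 2.85e-04), 5.03-fold between the means. From day 0 to day 3 it rose by 2.54 in control (SE 0.344, edgeR adjusted p 4.19e-05) and by 5.18 in cKO cultures (SE 0.392, edgeR adjusted p 3.29e-07) on the log2 scale. The difference between these rises was 2.64 (SE 0.453, edgeR adjusted p 0.0022), and it stayed between 2.33 and 2.95 when any single culture was left out.

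Markers of other cell types moved in the same day 3 cultures. Summed muscle-lineage markers were at 0.396 to 1.14 CPM in control and 70.5 to 847 CPM in cKO cultures. All 4 that could be tested of the 6 (Myod1, Myog, Myh3 and Des) were higher in cKO, Pax7 was at 0 in every control culture, and Myf5 was at 0 in every day 3 culture. Dkk3 was at 681 CPM in the cKO culture with the lowest muscle-lineage sum (70.5 CPM) and at 730 CPM in that with the highest (847 CPM). The first of these is replicate 4, the library that stood apart over all genes, so no relation of Dkk3 to the sum is read from them. Summed osteoblast markers were at 3680 to 5062 CPM in control and 6789 to 8696 CPM in cKO cultures, with 4 of 5 called higher. Summed tendon and fibrous markers were at 6239 to 7884 and 8594 to 9758 CPM, but of 6 tested 2 were higher and 1 lower (median log2 fold change −0.11). Summed hypertrophic chondrocyte markers were at 376 to 788 and 3701 to 4557 CPM, and this list went both ways. Spp1 (3.52), Col10a1 (3.28) and Mmp13 (2.71) were higher in cKO, whereas Ihh (−2.88) and Panx3 (−2.37) were lower (edgeR adjusted p at most 0.0402). Their part in the rise of Dkk3 was not tested.

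Dkk1 and Dkk2, the classical Dickkopf inhibitors of Lrp5 and Lrp6, were near or at the floor in most cultures and did not pass the expression filter of the genotype and day comparisons. Dkk1 had 1 to 4 counts per library at day 0 and 0 to 3 at day 3, so no difference was detectable at this depth. Dkk2 had 2 to 11 counts in control and 3 counts in each cKO library at day 0, and 2 to 9 counts in control cultures at day 3. In cKO cultures at day 3 it had 3, 7 and 4 counts in replicates 1 to 3 and 342 counts (19.7 CPM) in replicate 4. Dkk2 was thus high in a single culture, the one that stood apart from its group. In that culture summed osteoclast markers were at 355 CPM against 96.4 to 114 CPM in the other cKO cultures at day 3, and summed joint surface markers at 184 CPM against 76.3 to 106 CPM. Their part in the Dkk2 level was not tested. With the expression filter removed, Dkk2 differed between genotypes at day 3 by 3.96 on the log2 scale, which did not pass the test (edgeR adjusted p 0.0795), and its change from day 0 to day 3 in cKO cultures was 6.18, which did (edgeR adjusted p 0.00591). The filter also let Dkk2 through in the 6 fits that left out 1 day 0 culture, where that change was 6.08 to 6.23 (edgeR adjusted p 0.0097 to 0.0305). All of these fits hold cKO day 3 replicate 4, and Dkk2 did not pass the filter in the fit without it.

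Wif1, WNT inhibitory factor 1, followed Dkk3 in direction but with a smaller change. At day 0 it stood at 11.0, 12.3 and 15.4 CPM in control and 11.2, 11.8 and 10.0 CPM in cKO replicates, and the genotypes overlapped (log2 fold change −0.23, SE 0.123, edgeR adjusted p 0.125, or −0.34 and 0.0355 without control replicate 1). At day 3 it stood at 9.32, 10.8, 28.5 and 18.5 CPM in control and 49.0, 40.7, 36.0 and 52.6 CPM in cKO replicates. Each cKO culture was above each control culture there, with the control replicates spread over a wide range. The log2 fold change at day 3 was 1.42 (SE 0.337, edgeR adjusted p 0.00832). With day it rose by 2.02 in cKO cultures (SE 0.314, edgeR adjusted p 1.15e-04) and changed by 0.38 in control cultures (SE 0.303, edgeR adjusted p 0.306). The difference of 1.64 passed the test (SE 0.425, edgeR adjusted p 0.0201), but not without cKO day 0 replicate 3 (1.57, adjusted p 0.056) or control day 0 replicate 3 (1.49, adjusted p 0.0567).

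In postnatal cartilage the changes were smaller, and Sfrp5 was the 1 member called. It stood at 52.5, 33.3, 44.9 and 31.4 CPM in control replicates 1 to 4 and at 26.9, 20.1, 14.3 and 23.3 CPM in cKO replicates 1 to 4, from 16 to 70 counts per library. The cKO samples all lay under the lowest control sample. Of the 6 members tested, 1 did not overlap between genotypes, where 13.5% of all genes tested did not. The log2 fold change was −0.92 (SE 0.222, edgeR adjusted p 0.0224), and −1.01 (edgeR adjusted p 0.0135) in the authors' second, estimated-count table of the same libraries. The call was lost without cKO replicate 3 (−0.80, adjusted p 0.066), control replicate 1 (−0.78, 0.0843) or control replicate 3 (−0.82, 0.0599). In the cartilage, 3 of 9 chondrocyte markers were called lower (median −0.57). Per 1000 CPM of those markers Sfrp5 was at 0.431 to 0.661 CPM in control and 0.344 to 0.505 CPM in cKO samples, and the groups overlapped. The medians on this scale were 0.478 CPM in control and 0.479 CPM in cKO samples. Among markers of other cells, 2 of 2 blood markers tested (summed to 143 to 741 CPM in control and 15.1 to 327 CPM in cKO) and 3 of 3 osteoclast markers tested (124 to 452 and 57.9 to 118 CPM) were also called lower. Of the hypertrophic chondrocyte markers (summed to 976 to 1904 CPM in control and 170 to 1523 CPM in cKO), 4 of 5 were lower, namely Ihh (−1.48), Panx3 (−1.65), Col10a1 (−1.48) and Mmp13 (−2.17), with edgeR adjusted p at most 0.0465. Des, the 1 muscle-lineage marker that could be tested of 6, was higher (1.44, edgeR adjusted p 0.0241), at list sums of 5.15 to 6.75 and 10.3 to 28 CPM. None of the markers tested for osteoblasts (3), tendon and fibrous tissue (7), the joint surface (3), endothelium (4) or adipocytes (2) was called. The part of these cells in the result was not tested.

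Frzb in cartilage stood at 230, 165, 228 and 182 CPM in control and 132, 250, 59.8 and 89.6 CPM in cKO samples. The cKO samples covered a wide range: replicate 2 was above all control samples and the other 3 below them. The log2 fold change of −0.71 did not pass the test (SE 0.268, edgeR adjusted p 0.134), but did without cKO replicate 2 (−1.08, adjusted p 0.0043) and with no expression filter (−0.75, adjusted p 2e-04). Wif1 stood at 479, 544, 548 and 556 CPM in control and 471, 656, 286 and 358 CPM in cKO samples (log2 fold change −0.31, SE 0.185, edgeR adjusted p 0.343). Replicate 2 was again the highest of all samples. Sfrp1 (68.2 ± 13.4 and 65.9 ± 28.6 CPM with a log2 fold change of −0.06), Sfrp2 (16.3 ± 3.96 and 19.9 ± 4.30 CPM, 0.31) and Dkk3 (143 ± 29.1 and 125 ± 58.6 CPM, −0.21) overlapped between genotypes (SD, n = 4 each), with edgeR adjusted p of 0.921, 0.503 and 0.62. The level of Sfrp2 depended on the table, at 53.3 ± 8.08 CPM in control and 47.9 ± 6.34 CPM in cKO samples (SD, n = 4 each) in the estimated counts, where its log2 fold change was −0.16 (edgeR adjusted p 0.579). Sfrp4 (0 to 7 counts per library), Dkk2 (2 to 16 counts) and Dkk1 (0 or 1 count) were too low to be tested in the genotype comparison.

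**Figure D4:**
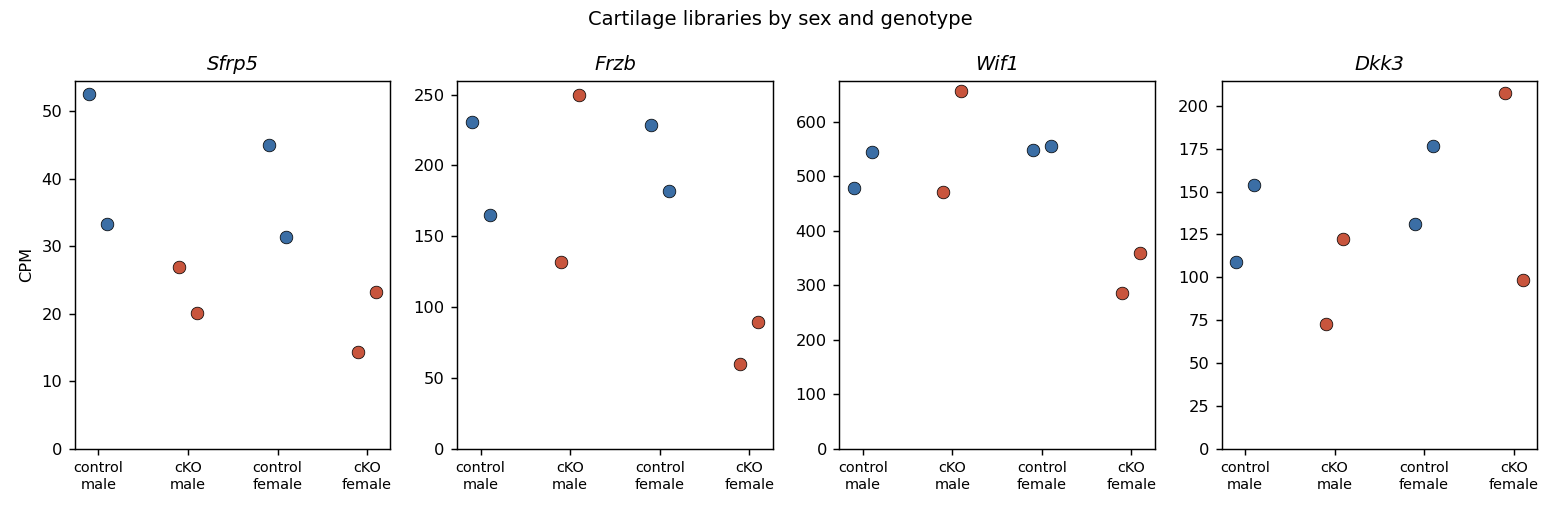
CPM of 4 antagonists (vertical axes from 0) in each cartilage library, by sex and genotype, with blue points for control and red points for cKO. Both female cKO samples lie below all 4 control samples for Frzb (59.8 and 89.6 CPM) and Wif1 (286 and 358 CPM), while the male cKO samples lie on both sides of the male controls.

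By sex, Frzb differed between genotypes by −0.05 in males (edgeR adjusted p 0.956) and by −1.46 in females (edgeR adjusted p 6.55e-04), with 2 samples in each sex and genotype. Wif1 differed by 0.14 in males and −0.79 in females (edgeR adjusted p 0.811 and 0.0825). The test of the difference between the sexes called 0 of the 7 members tested with edgeR and 0 with DESeq2, where 0.0103% of genes, 1 of 9687, was called by edgeR and 1 by DESeq2. At an unadjusted p under 0.05 there were 3 members and 468 genes in all: Frzb (−1.40, SE 0.403, p 0.00326, edgeR adjusted p 0.871), Wif1 (−0.92, SE 0.299, p 0.00744, edgeR adjusted p 0.871) and Dkk2 (2.14, SE 0.885, p 0.0282, edgeR adjusted p 0.994). For Frzb, removing the expression filter alone brought the difference past the threshold (−1.44, edgeR adjusted p 0.00848). Sfrp5 differed by −0.87 in males and −0.99 in females, neither of which passed alone (edgeR adjusted p 0.211 and 0.0962).

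Other WNT pathway genes were counted by role, against the 64.5% of all genes called at day 0 (33.0% higher and 31.6% lower) and the 48.1% called at day 3 (25.5% and 22.6%). Of 16 listed canonical targets of β-catenin signalling, 9 were higher and 3 lower in cKO among the 14 tested at day 0 (median log2 fold change 0.50), and 9 higher and 1 lower among 15 at day 3 (median 0.80), against a median of 0.01 over all genes. Axin2, the negative-feedback scaffold often read as a target, was higher at both days (1.44, SE 0.16, edgeR adjusted p 4.47e-05, and 1.32, SE 0.233, edgeR adjusted p 0.00201). Tcf7, a transcription factor of the pathway, was higher too (1.37 and 1.24, edgeR adjusted p 5.68e-05 and 0.00283). Lef1, a related factor, was higher at day 0 (0.52, edgeR adjusted p 0.0017) and differed by −0.94 at day 3 (edgeR adjusted p 0.106), a difference that passed without cKO replicate 4 (−1.51, edgeR adjusted p 0.00184). In the fit of all 14 cultures the day 0 calls of Lef1 and Nkd2 were lost (adjusted p 0.308 and 0.562). Nkd2, an inhibitor acting inside the cell, was higher by 1.05 at day 0 (edgeR adjusted p 0.00367) and by 6.33 at day 3 (SE 1.69, edgeR adjusted p 0.0142), or 3.26 without cKO replicate 4 (edgeR adjusted p 0.00115). Nkd1, from the same target list, went the other way on both days (−0.81 and −1.03, edgeR adjusted p 1.84e-05 and 2.3e-04). In cartilage, where 6.19% of all genes were called, so were 2 of 11 targets, Notum (1.39, edgeR adjusted p 3.12e-04) and Ccnd1 (1.17, edgeR adjusted p 5.59e-05), both higher, while Axin2 (−0.38), Tcf7 (0.41) and Lef1 (0.43) were not (edgeR adjusted p 0.364 to 0.483). Lef1 passed there without cKO replicate 2 (0.70, edgeR adjusted p 0.0446).

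**Figure D5:**
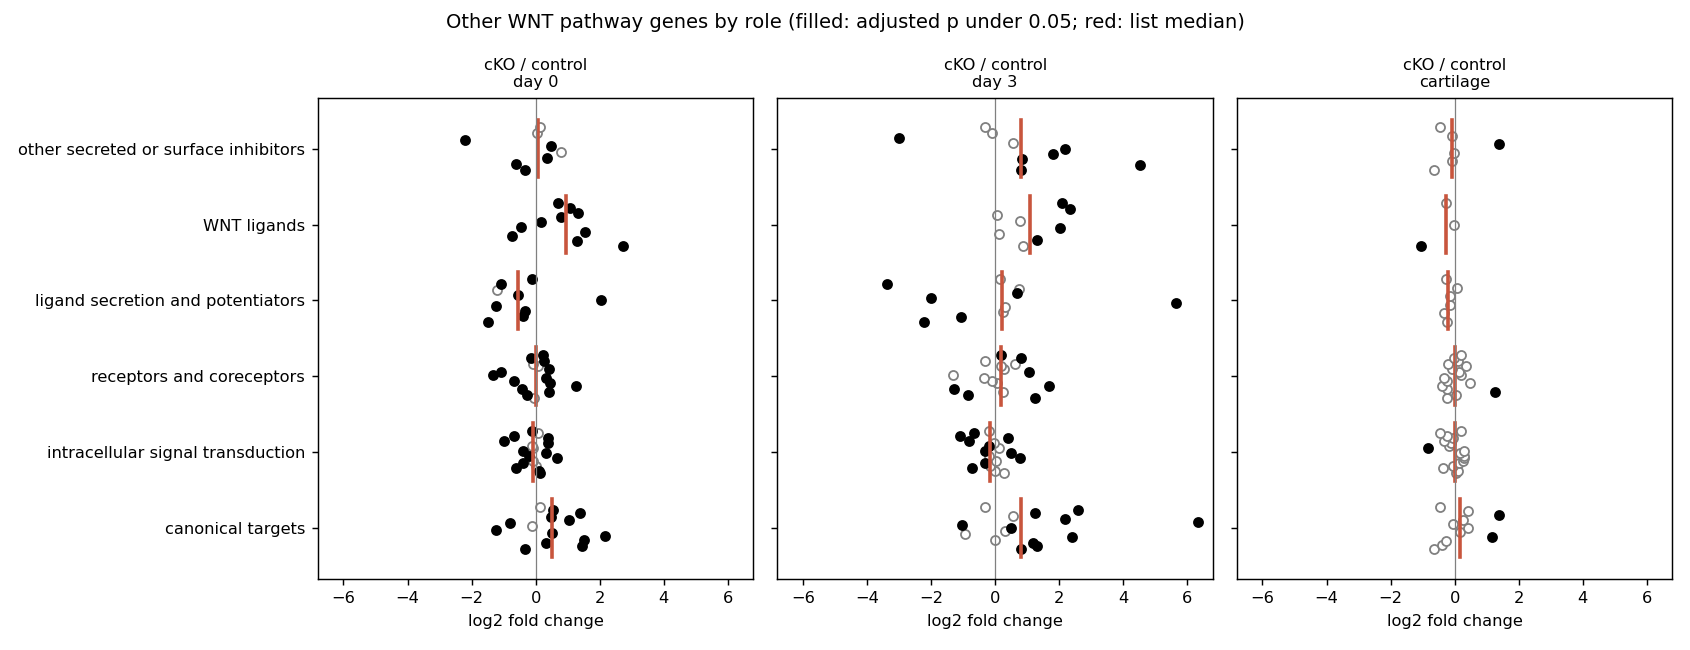
Log2 fold change of cKO over control (horizontal axis) for other WNT pathway genes in 6 role lists, with 1 point per gene tested, filled where the adjusted p is under 0.05, and a red line at the list median. Canonical targets have medians of 0.50 at day 0, 0.80 at day 3 and 0.18 in cartilage.

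Among other inhibitors outside the cell or at its surface, 2 were higher and 3 lower of 8 tested at day 0, and 5 higher and 1 lower of 9 at day 3 (medians 0.09 and 0.80), so that the 5 of 8 called at day 0 were near the 64.5% of all genes. Draxin, which binds Lrp6, was at 1.46 ± 0.388 CPM in control and 33.3 ± 5.20 CPM in cKO cultures at day 3 (SD, n = 4 each). It was higher in cKO there by 4.52 on the log2 scale (SE 0.193, edgeR adjusted p 2.03e-06). Kremen1, a receptor that acts with Dickkopf proteins, was higher by 1.82 at day 3 (SE 0.257, edgeR adjusted p 6.32e-04). Notum, an enzyme that removes the lipid from WNT proteins, was higher by 2.17 (SE 0.311, edgeR adjusted p 6.79e-04) at day 3. Its difference at day 0 (0.49, edgeR adjusted p 0.0416) was lost in 5 of 6 fits without a single replicate, all but that without cKO replicate 3, and with DESeq2, no expression filter, the replicate block or all 14 cultures in 1 fit. Notum, Apcdd1, Znrf3 and Rnf43 stand in both this list and the target list.

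Of the WNT ligands, 8 were higher and 2 lower in cKO of 10 tested at day 0, where 64.5% of all genes were called. At day 3, 4 were higher and 0 lower of 8, where 48.1% of all genes were called. Wnt5b, a ligand of non-canonical signalling in cartilage, was higher at both days (0.80 and 2.34, edgeR adjusted p 2.62e-05 and 3.3e-05). At day 0 Wnt10b was higher (1.28, edgeR adjusted p 1.14e-04) and Wnt11 lower (−0.74, edgeR adjusted p 1.56e-04). Wnt9a and Wnt2b were higher at day 3 (2.09 and 2.03, edgeR adjusted p 0.0039 and 0.00215). Of genes for ligand secretion and potentiation, 1 was higher and 7 lower of 9 at day 0, and 2 higher and 4 lower of 10 at day 3. Rspo3, an R-spondin that strengthens WNT signals, was lower by −1.07 at day 0 and −3.38 at day 3 (edgeR adjusted p 1.79e-06 and 7.08e-06). It stood at 251 ± 11.7 CPM in control and 23.9 ± 6.23 CPM in cKO cultures at day 3 (SD, n = 4 each). Lgr6, from the same list, went the other way, by 2.05 and 5.64 (edgeR adjusted p 2.91e-06 and 0.00667). Its day 3 levels in cKO cultures were widely spread, at 14.7 to 321 CPM, and its day 0 call was lost in 1 of 6 alternative fits. Receptors and coreceptors went both ways, with 7 higher and 6 lower of 16 at day 0 and 5 higher and 2 lower of 16 at day 3. Components inside the cell did likewise, with 6 higher and 7 lower of 18 and then 3 higher and 7 lower of 18. Of all genes, 64.5% were called at day 0 and 48.1% at day 3. At day 0 the ligands, of which every one tested was called, the potentiators, and the receptors and coreceptors were above that share. The ligands were furthest above it and the receptors and coreceptors least of these lists. The other counts stood nearer to the share of their day. No list was tested as a set. In cartilage 0 of 6 potentiators, 1 of 16 receptors (Fzd3, higher), 1 of 18 intracellular components (Dvl3, lower) and 1 of 3 ligands (Wnt4, lower) were called. The calls of Fzd3, Dvl3 and Wnt4 were each lost when some single libraries were left out, with adjusted p up to 0.132, 0.106 and 0.11, and all 3 in the estimated counts (0.128, 0.53 and 0.12).

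For each member whose culture group means spanned over 1 log2 unit, the genes with the most similar pattern over the 14 cultures were found by the root mean square difference of centred log2 CPM among 14909 genes. For Frzb these were Slc16a14 (0.369), Cmtm5 (0.453) and Chadl (0.581), over group means that spanned 4.92 log2 units. For Dkk3 they were Thbs2 (0.437), Ednra (0.521) and Thsd7a (0.539), over a span of 5.27. For Sfrp5 the nearest gene was Gli1 (0.872), followed by Hvcn1 (0.908), over a span of 5.85, so that no gene followed it as closely for its span as Slc16a14 followed Frzb. Sfrp5 had only 2 to 4 counts in each cKO library at day 3, and counting noise there adds to its distance from any gene. The nearest genes were Aspn (0.582) for Sfrp2, Spc24 (0.280) for Sfrp1, Ptpre (0.303) for Sfrp4 and Lrmda (0.357) for Wif1. These values describe the same 14 libraries from which the members' own differences come and carry no test.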

How the data were processed

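For cultures the authors deposited 1 table of estimated counts per day. For cartilage they deposited whole-number counts, used here, and estimated counts, used as an alternative. Per the submitters' processing notes the genome build was GRCm38, and for cartilage UMI-tools 1.1.1, Trim Galore 0.6.7, HISAT2 2.2.1, featureCounts 2.0.1 and DESeq2 1.34.0 were used. The culture aligner and counter, and whether molecular identifiers were collapsed, are not given in the sources used here. Per the labels' protocols, culture libraries came from a directional kit and cartilage libraries from a barcoded 3′ method.

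Estimated counts were rounded. Genes were tested with edgeR 4.0.16 in R 4.3.3 (TMM scaling, filterByExpr with a minimum of 10 counts and 15 in total, quasi-likelihood test, Benjamini-Hochberg adjustment over all genes tested, called under 0.05), on the samples compared, with sex as a covariate in cartilage. Changes with day and their difference between genotypes came from 1 fit of the 14 cultures. The difference between sexes came from 1 fit of 4 groups of cartilage samples. Standard errors (SE) were recovered from each log2 fold change and its F statistic. CPM used TMM factors, with all cultures scaled together, and exon lengths came from GENCODE M21. Replicate counts differed by more than sampling noise in every pair, so each library was 1 sample, and 0 columns were left unused. Alternatives were DESeq2 1.42.0, other scalings, no filter, the replicate block, other sets of samples and single libraries left out. The fits were tested on simulated data.

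Named genes were all 9 members, Dnmt1, up to 3 called genes with the largest change per pathway list with mean log2 CPM at or above 1, and 5 fixed targets (Axin2, Lef1, Tcf7, Nkd2 and Notum). Per member, the 3 genes of most similar pattern were found. Genes beyond these were chosen after their values were seen. The members and lists were chosen with earlier results of these data known.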

Additional observations from a re-analysis of the deposited data

Results flagged for a closer look

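Among 36 groups of 4 samples, 6 held a library far from the other 3, where chance gives about 1 group in 20 if values are normally distributed. Sfrp1 was at 5.42 CPM in control day 3 replicate 1, against 2.37 to 2.70 CPM in its group. Sfrp5 was at 10.9 CPM in control day 3 replicate 4, against 6.51 to 6.95 CPM. Dkk2 was at 19.7 CPM in cKO day 3 replicate 4, against 0.169 to 0.346 CPM, and that library also stood apart over all genes. Wif1 was lowest in control cartilage replicate 1, at 479 CPM against 544 to 556 CPM. For Dkk1, single libraries with 1 and 3 counts stood out from groups otherwise at 0, at 0.0543 CPM in control day 3 replicate 2 and 0.157 CPM in cKO day 3 replicate 3, neither above the floor of 3 counts. A group otherwise at 0 is flagged whatever the count of its single library, so the chance rate does not hold for Dkk1.

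The genotype effect differed between day 3 and day 0 for Dkk3, by 2.64 on the log2 scale (edgeR adjusted p 0.0022), with all 4 cKO cultures above all control cultures at day 3. For Wif1 it differed by 1.64 (edgeR adjusted p 0.0201), with all 4 cKO cultures above all control cultures at day 3.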

How the results depend on the processing

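Across all alternatives and left-out libraries, 725 of the members' values kept their direction and their side of the threshold, 27 lost a call, 10 gained one and 25 changed sign. The differences of Sfrp5, Frzb and Sfrp4 at both days, and of Dkk3 and Wif1 at day 3, kept their calls in every fit run. The causes of the changes below were not tested. At day 0 the fit of all 14 cultures called 6260 genes and 3 members. In cartilage DESeq2 called 357 genes, and fits of males or females alone called 194 and 290, with 0 members in males. Without the expression filter 1044 genes and 2 members (Sfrp5 and Frzb) were called there, and for the difference between sexes 33 genes and 1 member, while the estimated counts gave 2 genes. Scaling by total counts put the median log2 fold change of all genes at 0.12 at day 0 (0.01 with TMM) and moved the split of calls to 6452 higher and 3695 lower at day 0 (5119 and 4904 with TMM), 289 and 156 in cartilage (277 and 267), and 5136 and 3219 from day 0 to day 3 in control cultures (4183 and 4293).

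Small differences that were not called changed sign: in cartilage Sfrp1 to 0.00 with total counts and 0.35 in females, Sfrp2 to −0.16 in the estimated counts and Wif1 to 0.14 in males. The difference between days changed sign for Sfrp4 with total counts (−0.00), and the difference between sexes for Sfrp2 in the estimated counts (0.05). Leaving out single libraries gave 362 to 630 genes and 0 to 2 members in cartilage, 1591 to 4051 genes and 1 to 3 members for the difference between days, and 1 to 6 genes for that between sexes. The 4051 genes came without cKO day 3 replicate 4, the 362 without cKO cartilage replicate 4, and the 1591, 1604 and 1668 without control day 0 replicate 2, cKO day 0 replicate 3 and control day 0 replicate 3. Over such fits the log2 values ran from −0.28 to 0.26 for Sfrp1 in cartilage, −0.00 to 0.58 for Wif1 from day 0 to day 3 in control cultures and −0.40 to 0.08 for Dnmt1 in cKO cultures. For the difference between days they ran from −0.40 to 0.59 (Sfrp2), −0.15 to 0.26 (Sfrp4), −0.33 to 0.02 (Axin2) and −0.26 to 0.03 (Tcf7), and for that between sexes from −0.52 to 0.20 (Sfrp5) and −0.24 to 0.82 (Dkk3).

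Same-numbered samples of the 2 genotypes did not deviate together, with correlations of −0.063 to 0.14 at day 0, −0.145 to −0.064 at day 3 and −0.082 to 0.265 in cartilage, so the replicate number is no pairing. With a replicate block 9724 genes were called at day 0, 5391 at day 3, where Sfrp2 was lost (−1.39, adjusted p 0.0701), and 576 in cartilage. Depth limits Dkk1 and Dkk2 in the cultures and Sfrp4, Dkk1 and Dkk2 in cartilage.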
